A study of Mus musculus with 2 samples.

Results

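The 10 genes described here are Atf4 and 9 genes of the integrated stress response, taken by gene symbol from tables that list 15574 genes in all, and each had reads in both libraries. Atf4 encodes the transcription factor of the response. Phgdh, Psat1 and Asns encode enzymes that make serine and asparagine, and Ddit3, Nupr1, Trib3, Chac1, Ddit4 and Sesn2 are stress-induced genes that ATF4 or its partners are known to activate. Mouse T helper 17 (Th17) cells were profiled by sequencing their messenger RNA, in 1 library labelled CREB KO and 1 wildtype library, both of C57BL/6 background. Naive T cells had been kept for 6 days with IL6, TGFb, IL1b and IL23 and were restimulated on plate-bound CD3 for 4 h. The labels do not name the driver of the deletion, the deleted part of Creb1 or the number of mice.

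The integrated stress response begins when 1 of several kinases phosphorylates the translation factor eIF2 alpha. General protein synthesis then falls, while the Atf4 messenger RNA is translated more, so that ATF4 protein can rise with little change in its transcript. ATF4 binds DNA with C/EBP partners and turns on genes for amino acid synthesis, amino acid transport and tRNA charging. Activated T cells use the same genes to supply growing cells with serine, one-carbon units and asparagine.

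With 1 library per genotype there is no replicate error and no p-value, so each difference lies between these libraries and not between genotypes. Levels are counts per 1000000 reads (CPM) after library scaling, and ratios are the library labelled CREB KO over wildtype, each with an exact conditional binomial 95% interval. The intervals cover counting error only, and PCR copies without molecular identifiers are not independent molecules. The libraries held, in units of 1000 reads, 23938 (labelled CREB KO) and 26525 (wildtype). Creb1 itself had 25 reads in the library labelled CREB KO and 13 in the wildtype library, a ratio of 2.08 (1.04 to 4.51). Its 3 curated transcripts share 1149 of 8428 exon bases. Its count was not lower in the library labelled CREB KO, and so few reads cannot check the label. All 6 listed Th17 markers had reads in at least 1 library, with 543 CPM of Il17f in the library labelled CREB KO and 1508 in the wildtype library. Other markers of this list were near the floor. Il1r1 had 0 reads in the library labelled CREB KO and 3 in the wildtype library. Ccr6 stood at 2.42 CPM in the library labelled CREB KO and 2.99 in the wildtype library. The 4 listed B cell markers summed to 2.21 CPM in the library labelled CREB KO and 2.04 in the wildtype library, and the 4 myeloid markers to 8.17 CPM in the library labelled CREB KO and 9.19 in the wildtype library. The 5 listed T helper markers summed to 2414 CPM in the library labelled CREB KO and 2536 in the wildtype library. Of these, 4 had reads (Cd3e, Cd3g, Cd4 and Cd28), and Trac had none. Ms4a1, Lyz2, Itgam, Adgre1 and both natural killer markers had no reads. Cd8a had none either, while Cd8b1 had 234 reads in the library labelled CREB KO and 237 in the wildtype library. Since Trac is a T cell gene, a count of 0 here need not mean that a gene was not expressed. In bulk RNA, fewer cells of a type and less RNA per cell cannot be told apart.

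The promoters of Atf4 and of 4 of its listed targets hold short sequences known to bind CREB or ATF4, and these are shown because the comparison concerns a factor of the same family. The windows are RefSeq's, on GRCm38.p6, from 250 bases before to 50 after a start site, and all 10 genes were found, with 11 windows because Psat1 has 2. Each was searched on both strands for the C/EBP-ATF composite element, TGATGNAA, for the partial site of the cAMP response element (CRE), TGACG, and for the full CRE, TGACGTCA, which contains the partial site. In the lines below, capitals mark a match, in either orientation.
Atf4: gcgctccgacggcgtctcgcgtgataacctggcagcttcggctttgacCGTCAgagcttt
Asns: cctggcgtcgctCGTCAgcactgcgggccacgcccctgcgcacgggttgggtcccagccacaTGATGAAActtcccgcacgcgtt
Nupr1: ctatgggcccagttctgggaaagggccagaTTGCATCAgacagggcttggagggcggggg
Chac1: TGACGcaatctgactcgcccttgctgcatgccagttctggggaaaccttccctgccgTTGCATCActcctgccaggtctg
Trib3: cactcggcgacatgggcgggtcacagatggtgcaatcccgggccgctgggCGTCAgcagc

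These stretches lie at chr15:80255124-80255183 (Atf4, plus strand), chr6:7693210-7693294 (Asns, minus strand) and chr7:126625551-126625610 (Nupr1, minus strand). Those of Chac1 and Trib3 lie at chr2:119350992-119351071 (plus strand) and chr2:152344061-152344120 (minus strand). Each stretch lies before the RefSeq start site of its window. GENCODE, whose gene bounds are given with each gene, has Nupr1 and Asns transcripts that start further upstream, so the Nupr1 stretch and part of the Asns stretch lie within those wider bounds. The composite element was found for 4 of the 10 genes (Asns, Nupr1, Chac1 and Trib3, where it begins at base 15 after the start and is not shown), and 3.97% of all 32851 windows hold it. The CRE partial site was found for 4 genes (Atf4, Asns, Chac1 and Trib3), and 20.8% of all windows hold it. The full CRE was found for none of the 10 genes, and 1.79% of all windows hold it. Ddit3, Psat1, Phgdh, Ddit4 and Sesn2 had no match to these letters in these windows. A match is a description of the sequence and was not set against binding.

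Atf4 lies on chromosome 15 (80255184 to 80257541, GRCm38). It had 818 reads in the library labelled CREB KO and 1060 in the wildtype library, or 34.1 and 40.1 CPM. Its ratio was 0.851 (0.775 to 0.933), so the level was lower in the library labelled CREB KO by more than counting error. In the band of 10 to 100 CPM, where Atf4 lies, the central 95% of 5053 genes had ratios between 0.792 and 1.26, and 7.6% of them had a lower ratio than Atf4. The Atf4 difference was therefore beyond counting error and inside the spread of genes at a like level.

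Asns, whose enzyme transfers nitrogen to aspartate to make asparagine (chromosome 6, 7675169 to 7693254), had 2170 reads in the library labelled CREB KO and 2863 in the wildtype library. Those are 90.4 and 108 CPM, with a ratio of 0.835 (0.790 to 0.884). It was thus lower by nearly the same factor as Atf4, and 5.8% of the genes in its band had a lower ratio. Its mean of 99.3 CPM lies at the upper edge of that band. The central 95% of genes of 100 CPM and more began at a ratio of 0.866. Psat1, the aminotransferase of the second step of serine synthesis (chromosome 19, 15904678 to 15947337), had 99 and 156 reads in the libraries labelled CREB KO and wildtype, or 4.12 and 5.90 CPM. Its ratio of 0.70 (0.538 to 0.906) was the lowest of the 10, and 6.9% of the 3247 genes of 1 to 10 CPM had a lower one. Psat1 has 2 curated RefSeq transcripts that share 1972 of their 2936 exon bases, and the processed pseudogene Gm3329 lies within the gene. The file headers call the counts unique reads, but whether reads common to transcripts of 1 gene were kept is not stated, so the low Psat1 level may rest on part of its reads.

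Phgdh, the dehydrogenase of the first step of serine synthesis (chromosome 3, 98313170 to 98339990), stood apart from the other two enzymes. It had 6660 reads in the library labelled CREB KO and 7015 in the wildtype library, or 277 and 265 CPM, and its ratio of 1.05 (1.012 to 1.08) was just above 1. Its reads could be shared with an annotated pseudogene copy, Phgdh-ps1. Set directly against each other, the reads of Psat1 per read of Phgdh had a ratio of 0.668 (0.513 to 0.867) between the libraries. For Asns per read of Phgdh that ratio was 0.798 (0.748 to 0.852). Psph, the phosphatase of the last step of serine synthesis, named after its value was seen, had a ratio of 0.983 (0.913 to 1.06). The contrast within serine synthesis therefore rests on Psat1, the gene with the fewest reads of the 3.

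All 6 stress targets had ratios above 1, from 1.02 to 1.54, and 3 had whole intervals above 1. Over the 10462 genes that averaged at least 1 CPM, 5037 had ratios above 1. Of all these genes, 16.2% had whole intervals above 1 and 19.5% below 1. Of all 10 members, 4 had whole intervals above 1 (Nupr1, Sesn2, Ddit4 and Phgdh) and 3 below (Atf4, Asns and Psat1).

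Nupr1, a small chromatin protein induced by many stresses (chromosome 7, 126623249 to 126630861), had 374 reads in the library labelled CREB KO and 267 in the wildtype library, or 15.6 and 10.1 CPM. Its ratio of 1.54 (1.32 to 1.81) was the highest of the 10, and 14 of the 5053 genes of 10 to 100 CPM had a higher one. A gene was counted as apart when its ratio reached 1.5-fold and its interval left out 1. By this rule 1 of the 10 genes (Nupr1) was higher, as were 2.48% of all genes, and none was lower, as were 1.5% of all genes. At 1.2-fold in place of 1.5-fold, 1 gene was higher (Nupr1; 6.19% of all genes) and 1 was lower (Psat1; 5.48% of all genes), with Asns just short of that limit.

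**Figure D1:**
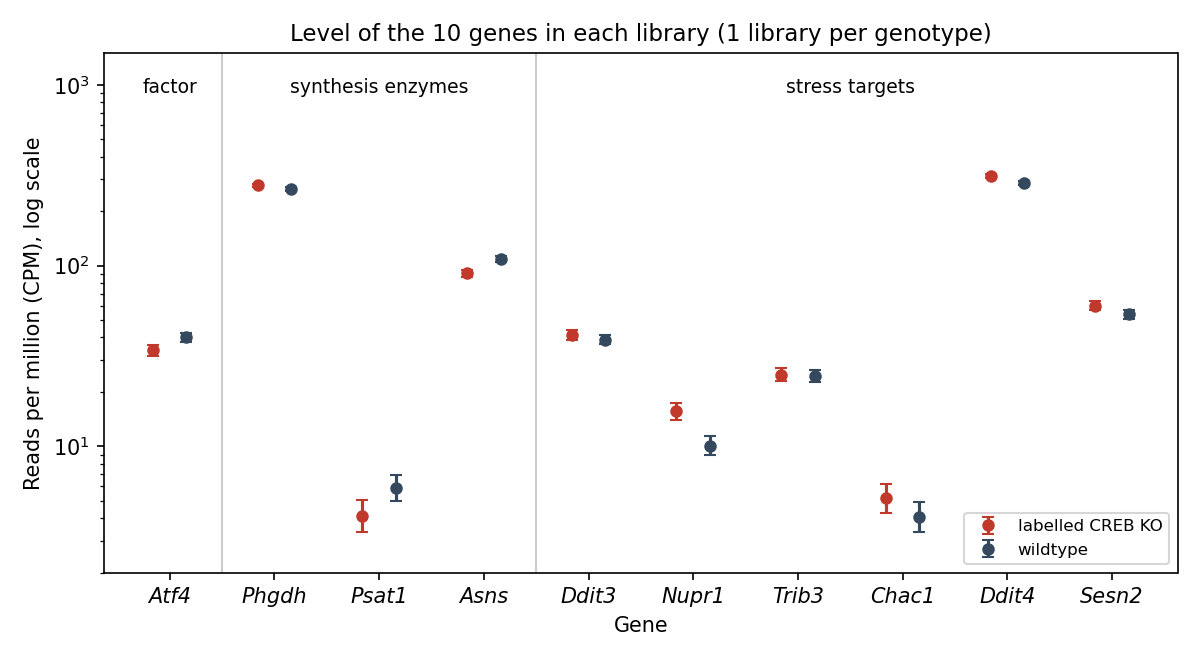
Level of each of the 10 genes in CPM, on a log scale, in the library labelled CREB KO (red) and the wildtype library (dark blue), with exact Poisson 95% intervals that cover counting error only. Atf4, Psat1 and Asns were lower in the library labelled CREB KO, and Nupr1 was higher, at 15.6 against 10.1 CPM.

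Ddit4, an inhibitor of mTORC1 (chromosome 10, 59949669 to 59951834), had 7489 reads in the library labelled CREB KO and 7587 in the wildtype library, or 312 and 287 CPM. Its ratio was 1.09 (1.05 to 1.12). Sesn2, a leucine sensor that also restrains mTORC1 (chromosome 4, 132492032 to 132510501), had 1442 and 1419 reads in the libraries labelled CREB KO and wildtype, or 60.1 and 53.6 CPM, and a ratio of 1.12 (1.04 to 1.21). Ddit4 and Sesn2 were thus slightly higher in the library labelled CREB KO, inside the central 95% of genes at a like level. They do not stand for all genes that limit mTORC1. The noncoding gene model Gm12981 overlaps Sesn2 on the same strand.

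Ddit3 encodes CHOP, a partner of ATF4 tied to cell death under lasting stress (chromosome 10, 127290829 to 127293753). It had 989 reads in the library labelled CREB KO and 1031 in the wildtype library, or 41.2 and 39.0 CPM, and a ratio of 1.06 (0.968 to 1.15). Trib3, a pseudokinase that is induced by ATF4 and CHOP and restrains ATF4 (chromosome 2, 152337422 to 152344032), had 598 and 645 reads in the libraries labelled CREB KO and wildtype, or 24.9 and 24.4 CPM, and a ratio of 1.02 (0.913 to 1.14). Chac1, which encodes a glutathione-degrading enzyme (chromosome 2, 119351229 to 119354381), had 124 and 108 reads in the libraries labelled CREB KO and wildtype, or 5.17 and 4.08 CPM, and a ratio of 1.26 (0.970 to 1.65). The intervals of these 3 genes include 1, so a difference was not detectable at this depth, and Chac1 allows a ratio of up to 1.65.

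**Figure D2:**
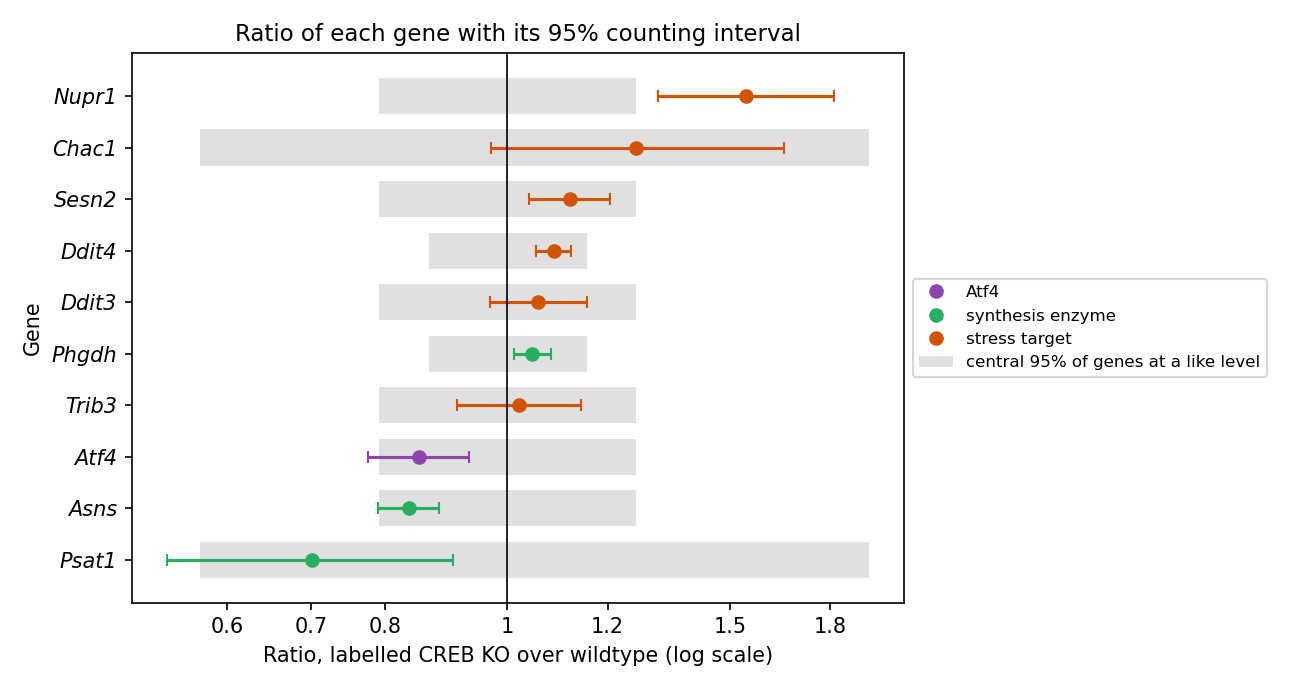
Ratio of each gene, labelled CREB KO over wildtype, on a log scale with its 95% counting interval, coloured by role. Grey bars span the central 95% of all genes in the same band of mean level (1 to 10, 10 to 100, or 100 CPM and more). Nupr1 at 1.54 lies outside its grey bar, and the other 9 points lie inside theirs. For Nupr1 and Asns this depends on the band edges. Asns, at a mean of 99.3 CPM, lies beside the band of 100 CPM and more, whose bar starts at 0.866. Nupr1, at a mean of 12.8 CPM, lies near the band of 1 to 10 CPM, whose bar ends at 1.93.

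Asns was the gene closest to Atf4 in ratio, and the stress targets were all above it. Reads of a gene per read of Atf4 do not depend on library scaling, and their ratio between libraries has an exact conditional interval for counting error. For Asns there were 2.65 reads per Atf4 read in the library labelled CREB KO and 2.70 in the wildtype library, a ratio of 0.982 (0.881 to 1.09). For Psat1 that ratio was 0.822 (0.622 to 1.08). Both intervals include 1, which does not show that these genes and Atf4 moved alike. For Phgdh the ratio was 1.23 (1.12 to 1.36), with 8.14 reads per Atf4 read in the library labelled CREB KO and 6.62 in the wildtype library.

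Each of the 6 stress targets had more reads per Atf4 read in the library labelled CREB KO than in the wildtype library, by more than counting error. The ratios ran from 1.2 (1.04 to 1.39) for Trib3 through 1.24 (1.09 to 1.41) for Ddit3, 1.28 (1.16 to 1.41) for Ddit4 and 1.32 (1.17 to 1.48) for Sesn2 to 1.49 (1.12 to 1.98) for Chac1. Nupr1 again stood highest, at 1.81 (1.51 to 2.19), with 0.457 reads per Atf4 read in the library labelled CREB KO and 0.252 in the wildtype library. These 9 ratios share the Atf4 count, so they are not independent of each other. Of the 5053 genes in the band of Atf4, 92.4% had a higher ratio than Atf4. A rise per Atf4 read is therefore common and not particular to these targets. Between targets, Nupr1 reads per Ddit3 read had a ratio of 1.46 (1.22 to 1.76), whereas Trib3 per Ddit3 had 0.967 (0.837 to 1.12) and Chac1 per Ddit3 had 1.2 (0.903 to 1.59).

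**Figure D3:**
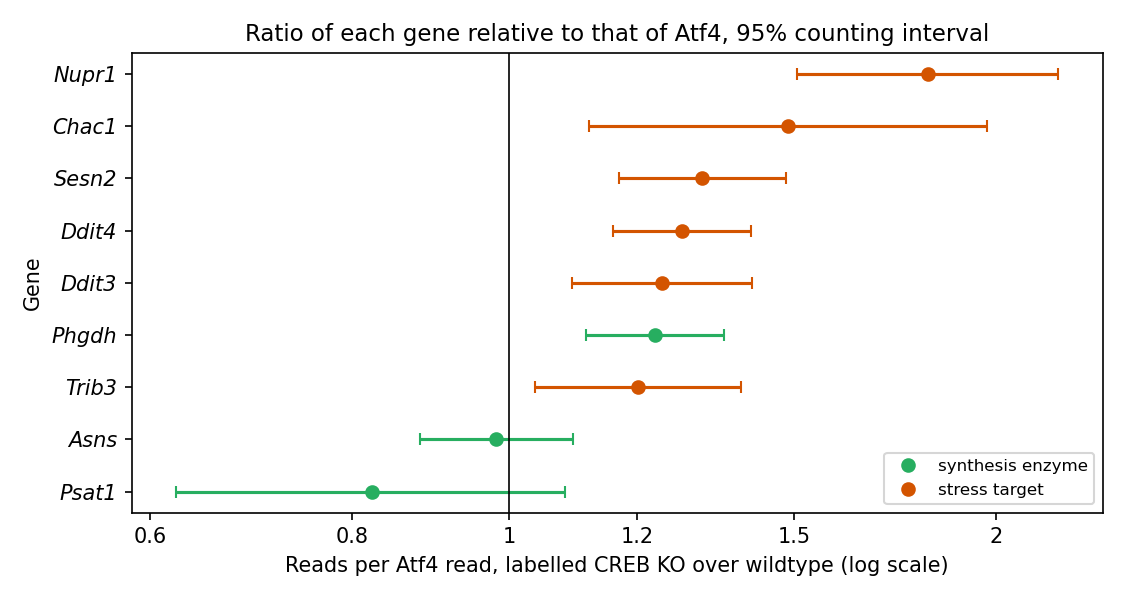
Reads of each of 9 genes per read of Atf4, as the ratio of labelled CREB KO over wildtype on a log scale with 95% counting intervals. Intervals of Psat1 and Asns cross 1, and those of Phgdh and the 6 stress targets lie above it, up to 1.81 for Nupr1. Of the genes of 10 to 100 CPM, 92.4% had a higher ratio than Atf4.

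Per kilobase of annotated exon, the levels spanned over 2 orders of magnitude and kept nearly the same order in both libraries. That span depends on the length used. Ddit4 was highest, at 178 and 163 CPM per kilobase in the libraries labelled CREB KO and wildtype, followed by Phgdh at 112 (labelled CREB KO) and 107 (wildtype) and Asns at 33.1 (labelled CREB KO) and 39.6 (wildtype). Ddit3 came next at 24.1 CPM per kilobase in the library labelled CREB KO and 22.8 in the wildtype library. Atf4 stood at 14.5 (labelled CREB KO) and 17.0 (wildtype), and Sesn2 at 17.3 (labelled CREB KO) and 15.4 (wildtype). Atf4 and Sesn2 changed places between the libraries, so with this length their order does not hold across both.

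The lower end of the order held Trib3, at 11.7 and 11.5 CPM per kilobase in the libraries labelled CREB KO and wildtype, Nupr1 at 6.20 (labelled CREB KO) and 4.01 (wildtype), and Chac1 at 3.16 (labelled CREB KO) and 2.49 (wildtype). Psat1 was lowest, at 0.970 CPM per kilobase in the library labelled CREB KO and 1.39 in the wildtype library. Phgdh thus stood 7.72 times above Atf4 per length in the library labelled CREB KO and 6.28 times in the wildtype library. Atf4 and Ddit3 have 2 curated transcripts, as Psat1 has, and Phgdh has 1. Protein-coding genes with reads had a median of 16.1 CPM with 1 curated transcript and 6.94 CPM with 2. The reason for this difference was not tested. By mean level, Atf4 (37.1 CPM) and Ddit3 (40.1) lay above both medians and Psat1 (5.01) below. Because the treatment of shared reads is not stated, levels set across these genes may rest on different parts of their reads. Over the lengths of curated transcripts alone, Nupr1 moved above Trib3. It reached 18.8 CPM per kilobase in the library labelled CREB KO and 12.2 in the wildtype library. In the library labelled CREB KO it also passed Sesn2, at 17.3. Atf4, at 19.8 (labelled CREB KO) and 23.2 (wildtype), then stood above Sesn2 in both libraries. Ddit3 (46.3) and Asns (45.2) changed places in the library labelled CREB KO, so the middle of the order depends on the length used. Psat1 rose to 1.40 CPM per kilobase in the library labelled CREB KO and 2.01 in the wildtype library over these lengths. The span of the levels thus depends on the length too.

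Upstream of ATF4, a list of eIF2 kinases, phosphatase subunits, eIF2 alpha, subunits of its exchange factor eIF2B and activators of the kinases held 15 genes, all measured (a mean of 1 CPM or more). Of these, 1 was 1.5-fold or more higher and none was lower, beside 2.48% and 1.5% of all genes. Whole intervals lay above 1 for 5 and below 1 for 1, beside 16.2% and 19.5% of all genes. The median log2 ratio was 0.01, beside -0.01 over all genes. The gene passing was Eif2ak4, the kinase GCN2 that senses uncharged tRNA, with 41 and 26 reads in the libraries labelled CREB KO and wildtype and a ratio of 1.72 (1.04 to 2.96). Eif2ak2, the RNA-sensing kinase PKR, had a ratio of 1.15 (1.04 to 1.27), and Eif2s1, which encodes eIF2 alpha itself, 0.907 (0.876 to 0.939). Of 8 measured genes of bZIP partners and relatives of ATF4, none was 1.5-fold apart (median 0.08), beside the same shares of all genes. A whole interval lay above 1 for 1 of these 8 genes and below 1 for none. Atf3, a repressor induced by ATF4, had 1353 and 1207 reads in the libraries labelled CREB KO and wildtype and a ratio of 1.24 (1.14 to 1.34), and Cebpg, a C/EBP partner of ATF4, had 0.95 (0.882 to 1.02).

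The other amino acid genes gave mostly small ratios. Of 13 one-carbon enzymes (median -0.04), none was lower by 1.5-fold, beside 1.5% of all genes, and 1 was higher, beside 2.48%. This was Gldc, the glycine decarboxylase, with only 42 and 16 reads in the libraries labelled CREB KO and wildtype and a ratio of 2.83 (1.59 to 5.51), while Tyms had 0.863 (0.752 to 0.991). None of 15 other amino acid synthesis genes was 1.5-fold apart, with 12 ratios below 1 (median -0.09), beside 5425 of 10462 over all genes. Whole intervals lay above 1 for 1 of these 15 genes and below for 4, beside 16.2% and 19.5% of all genes. Ass1, the argininosuccinate synthase, had 0.824 (0.755 to 0.900), and Asnsd1, named for its asparagine synthetase domain, had 0.862 (0.806 to 0.922). None of 12 amino acid transporter genes was apart by this rule (median 0.01), beside 2.48% higher and 1.5% lower of all genes. Whole intervals lay above 1 for 1 transporter gene and below 1 for 2. The chains of the leucine transporter, Slc7a5 and Slc3a2, had ratios of 0.917 (0.883 to 0.952) and 0.884 (0.756 to 1.03).

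Of the 10 further lists, those of tRNA charging and protein folding had the largest shares of whole intervals below 1. By the 1.5-fold rule, 2.48% of all genes were higher and 1.5% lower. None of 13 tRNA synthetase genes was 1.5-fold apart. Of these 13 genes, 7 had whole intervals below 1 and none above (median -0.10), where 19.5% of all genes lay below. Eprs had 0.846 (0.813 to 0.881) and Lars 0.896 (0.848 to 0.947). Of 14 genes of the IRE1 and ATF6 arms, the branches of the unfolded protein response that do not run through eIF2 alpha, none was 1.5-fold apart, and 9 had whole intervals below 1 and none above (median -0.15). The co-chaperone gene Dnajc3 had 2887 and 3988 reads in the libraries labelled CREB KO and wildtype and a ratio of 0.798 (0.760 to 0.837), and Creld2 had 0.861 (0.810 to 0.915). Low ratios of folding genes in these libraries were known when the list was made, so its count is no independent evidence. Abundant genes also have narrower intervals, and the share over all genes is not matched for level.

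**Figure D4:**
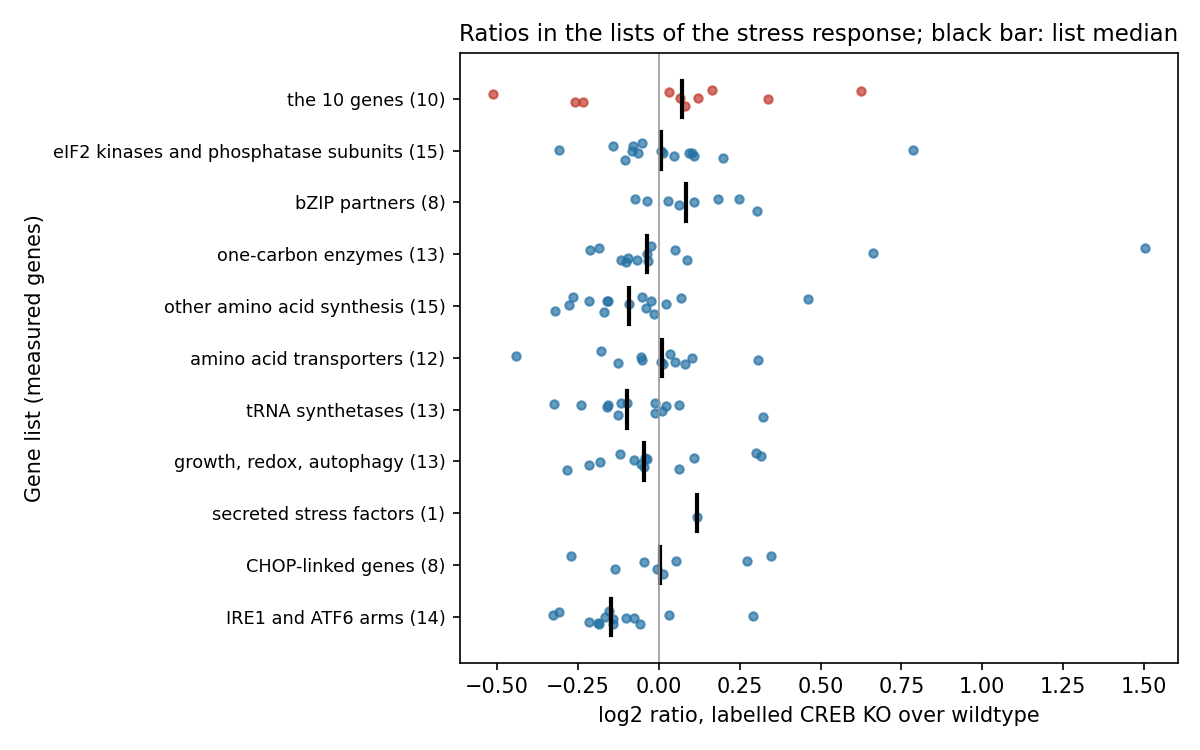
Log2 ratio (labelled CREB KO over wildtype) of each measured gene in the 10 genes of the report (red) and in 10 further lists of the response (blue), with black bars at the list medians and the number of measured genes in brackets. Medians run from -0.15 for the IRE1 and ATF6 arms to 0.12 for the single measured secreted factor, and the 10 genes spread from -0.51 (Psat1) to 0.63 (Nupr1).

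Among 13 measured genes of growth control, redox and autophagy, none was 1.5-fold apart (median -0.04), beside 2.48% higher and 1.5% lower of all genes. Whole intervals lay above 1 for 3 of them and below 1 for 5, beside 16.2% and 19.5% of all genes. Gatsl2, an older symbol of Castor2, an arginine sensor relative upstream of mTORC1, had 1.25 (1.13 to 1.38). Gclm, a subunit of the glutathione synthesis enzyme, had 0.822 (0.757 to 0.892). Of 8 genes linked to CHOP, none was apart either (median 0.0031), with 1 whole interval above 1 and 3 below. The death gene Bbc3 had 1.21 (1.11 to 1.31) and Trib2 0.829 (0.765 to 0.899). Of 5 secreted stress factors only Stc2 reached 1 CPM, with 453 and 460 reads in the libraries labelled CREB KO and wildtype and a ratio of 1.09 (0.951 to 1.24). Gdf15 had 6 reads in the library labelled CREB KO and 4 in the wildtype library, and Fgf21 had none in either library.

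Over the 10 lists together, 2 of 112 measured genes were higher by 1.5-fold, beside 2.48% of all genes, and none was lower, beside 1.5%. Whole intervals lay above 1 for 13 of the 112 genes, beside 16.2% of all genes, and below 1 for 33, beside 19.5%. The median log2 ratio of the 10 members was 0.07, beside -0.01 over all 10462 genes. This median joins Atf4, Asns and Psat1 below 0 with Phgdh and the stress targets above 0. The members' part of all reads was 0.0867% in the library labelled CREB KO and 0.0835% in the wildtype library.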

How the data were processed

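RNA-seq counts of 2 libraries of Th17 cells were analysed, 1 per genotype. The deposited files hold whole-number counts of uniquely assigned reads per gene symbol, per the file headers, with no normalization. Tools named in the submitters' processing notes are bcl2fastq and HTSeq, with the build mm10. The aligner, gene models, strand setting and treatment of reads common to several transcripts of a gene are not stated there. A gene listed in 1 library only was taken as 0 in the other. TMM factors (edgeR 4.0.16, R 4.3.3) scaled the libraries, and a prior count of 0.5 entered each ratio. With 1 library per genotype the edgeR quasi-likelihood model has 0 residual degrees of freedom and was not fitted. Ratios carry exact conditional binomial 95% intervals, single levels exact Poisson intervals, and ratios relative to Atf4 exact conditional odds ratio intervals (scipy 1.17.1). Genes averaging at least 1 CPM entered counts and medians, and a gene was counted as apart at 1.5-fold with an interval excluding 1. The steps were tested on simulated counts. Positions and exon lengths come from GENCODE M21 on GRCm38, and matplotlib 3.10.9 drew the figures.

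The members and lists were chosen with earlier results of these data known. The genes named are the 10 members, Creb1, the markers, each listed gene past the 1.5-fold rule, and up to 2 genes per list with the largest log2 ratio at a mean of 10 CPM or more. The result of 1 gene that this rule takes is not reported here. Psph, Gdf15 and Fgf21 were named after their values were seen. The alternatives tried were other library scalings (total counts, size factors of DESeq2 1.42.0, upper quartiles), a prior count of 5, random thinning of the wildtype library, a filter at 10 CPM or none, a rule of 1.2-fold or 2-fold, and other gene lengths. The curated length was chosen after seeing the data.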

Additional observations from a re-analysis of the deposited data

How the results depend on the processing

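Under the 3 other scalings, a prior count of 5 and thinning of the deeper library, each of the 10 genes kept its direction, and each log2 ratio stayed inside its own interval. Among the scalings, total counts moved the median log2 ratio over all genes most, by 0.0077, so they could change little. None of these settings replaces a replicate or shows how shared reads were counted. Atf4 ranged from 0.836 to 0.855, Asns from 0.834 to 0.840, Psat1 from 0.676 to 0.709 and Nupr1 from 1.53 to 1.56. With a 2-fold rule 0 of the 10 genes were higher. With a 1.2-fold rule 1 was lower (Psat1), where 5.48% of all genes were. Both follow from the rule itself. Over all genes, 259 were higher and 157 lower by the 1.5-fold rule, against 23 and 17 with a filter at 10 CPM, 521 and 300 with no filter, 70 and 46 at 2-fold, and 648 and 573 at 1.2-fold. Eif2ak4 and Gldc drop out with the filter at 10 CPM, and Eif2ak4 also at 2-fold. With the length of the longest transcript, Ddit3 reached 42.5 CPM per kilobase in the library labelled CREB KO, and Psat1 1.58. Genes with few reads limit the account: at 99 and 156 reads, Psat1 has an interval from 0.538 to 0.906, and its level depends on how shared reads were counted. No paired analysis was possible because each genotype has 1 library and the labels give no replicate numbers.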
